A study of Homo sapiens with 6 samples.

Results

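The genes described here are the 3 hyaluronan synthases HAS1, HAS2 and HAS3, the hyaluronidases HYAL1, HYAL2, HYAL3 and CEMIP, the hyaluronan receptor CD44, and UGDH, which supplies a hyaluronan precursor. They were taken by gene symbol from the deposited table, which held all 9 among its 46427 genes. They were selected on values of these data, the read counts of treated and control cells, so their differences between those groups are given as a description, without p-values. Messenger RNA was sequenced from VK2/E6E7, an established human vaginal epithelial line that carries papillomavirus E6 and E7 genes and is labelled wild type. The control group received PBS. The other received the bacterium Lactobacillus salivarius, strain HHuMin-U (HMU), for 6 h at a dose of 1e8 CFU/mL, and each group had 3 biological replicates. All were grown in keratinocyte serum-free medium with epidermal growth factor, bovine pituitary extract and antibiotics, and the treated group is 1 strain at 1 dose and 1 time in 1 immortalised line.

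Hyaluronan is an unsulfated glycosaminoglycan, a long chain of alternating glucuronic acid and N-acetylglucosamine. Unlike other glycosaminoglycans it is made at the plasma membrane, by synthases that join cytosolic UDP-glucuronic acid and UDP-N-acetylglucosamine and extrude the growing chain. In stratified squamous epithelium, including that of the vagina, it fills the spaces between keratinocytes, where CD44 is its main receptor, and its fragments arise through hyaluronidases.

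HAS1 and HAS3 are paralogues that differed in these cells, and the 250 bases before the annotated start of each are shown for that reason. They come from the RefSeq promoter table (GRCh38.p14), which held 8 of the 9 genes. Capitals mark matches, on either strand, to GGG and CC separated by 5 bases of any kind, a loose form of the site bound by NF-kB; overlapping matches run together. The HAS3 stretch is chr16:69107290-69107539 on the plus strand and lies inside the annotated gene, which starts further upstream. The HAS1 stretch is chr19:51723992-51724241 on the minus strand.
HAS3: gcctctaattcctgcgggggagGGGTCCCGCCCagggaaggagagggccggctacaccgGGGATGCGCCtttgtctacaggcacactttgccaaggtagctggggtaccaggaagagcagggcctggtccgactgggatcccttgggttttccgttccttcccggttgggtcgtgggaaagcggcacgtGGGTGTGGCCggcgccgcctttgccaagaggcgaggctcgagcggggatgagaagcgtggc
HAS1: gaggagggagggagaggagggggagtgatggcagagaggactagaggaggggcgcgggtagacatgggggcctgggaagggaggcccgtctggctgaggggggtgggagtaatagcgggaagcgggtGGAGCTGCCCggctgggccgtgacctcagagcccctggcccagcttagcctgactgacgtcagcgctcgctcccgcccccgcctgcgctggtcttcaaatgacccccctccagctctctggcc
The HAS3 stretch held 4 matches to this pattern and the HAS1 stretch held 1. The number of matches was 9 for HYAL1, 4 for UGDH, 3 for CD44, 1 for CEMIP and 0 for HYAL2. HYAL3 had 2 and 6 in its 2 listed promoters. Of the genes closest to HAS3 in profile, CCL20 had 5, CXCL8 1 and IL36G 0. No promoter was matched by symbol to OLR1 or C15orf48, which are also among the closest. Whether the number of matches relates to the size of the difference was not tested. Such a match is common: 54.4% of 35116 promoters in the table held at least 1 in the same window, as did 7 of the 8 genes. Neither TGANTCA, the form bound by AP-1, nor TTCNNNGAA, the form bound by STAT factors, occurred in the window of any of the 8 genes; 6.57% of all promoters held the first and 6.57% the second. A match describes the letters only.

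Total counts ran from 64292566 to 65957584 per library. Chi-square per gene between libraries of a group was 4.87 to 5.91 for PBS and 13.5 between HMU replicates 1 and 3. It was 63.7 and 109 between HMU replicate 2 and the other HMU libraries, so that library stood apart, and differences are also given without it. All 11 squamous epithelial markers were measured, with a summed level of 75160 to 77160 TPM (transcripts scaled by length and library) in PBS and 59590 to 64560 in HMU; 5 of them were called higher and 3 lower. Of 9 leukocyte markers 4 could be tested, with 3 higher and 1 lower, and the list summed to 84.5 to 89.0 TPM in PBS and 132 to 141 in HMU. CD68 held most of that sum, with a mean of 80.04 TPM in PBS and 126 in HMU, while PTPRC, which defines leukocytes, had 0.0296 and 0.0149 TPM and MS4A1 was at 0. CD14 was called higher, with 2.41 TPM in PBS and 8.38 TPM in HMU (edgeR adjusted p = 0.000222), as was ITGAM, with 38 and 82 reads in all, and CSF1R was called lower, with 3.82 and 1.22 TPM. Fibroblast markers (6 of 8 tested, 1 higher and 3 lower) summed to 57.3 to 61.0 and 35.9 to 38.9 TPM, mostly COL1A1, with COL1A2 at 0.0364 and 0 TPM. Endothelial markers (4 of 6 tested, 3 higher and 1 lower) summed to 0.401 to 0.491 and 0.768 to 1.28 TPM. PECAM1 (10 PBS reads), CDH5 (0 PBS reads), PDGFRA (0 PBS reads) and ITGAM passed the filter on low counts only through the HMU libraries, so their calls as higher are no support. Over all 17990 tested genes 24.8% were called higher and 24.9% lower at an edgeR adjusted p under 0.05. Nothing is read from the marker counts. The part of these marker lists in the hyaluronan results was not tested. In bulk RNA, fewer cells of a type and less RNA per cell cannot be told apart.

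The comparison asks which transcripts differ between cells with and without the bacterium. All 9 genes passed the filter on low counts; HAS2 did so through its HMU libraries, not through PBS alone. At an edgeR adjusted p under 0.05, 6 of the 9 were called higher and 0 lower, where 24.8% of 17990 tested genes were called higher and 24.9% lower (49.7% either way); since the genes were chosen with this comparison known, nothing is read from that count. Their median log2 fold change was 0.52, and that of all tested genes was -0.00245. This balance depends on scaling. TMM scaling, used for the scaled read counts (CPM) and log2 fold changes below, set 49.8% of all called genes as higher, library sizes alone set 23.5%, and log2(TPM + 1) set 17.7%. With library sizes alone the median log2 fold change of all genes moved to -0.28, so differences of that size take their direction from the scaling.

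**Figure D1:**
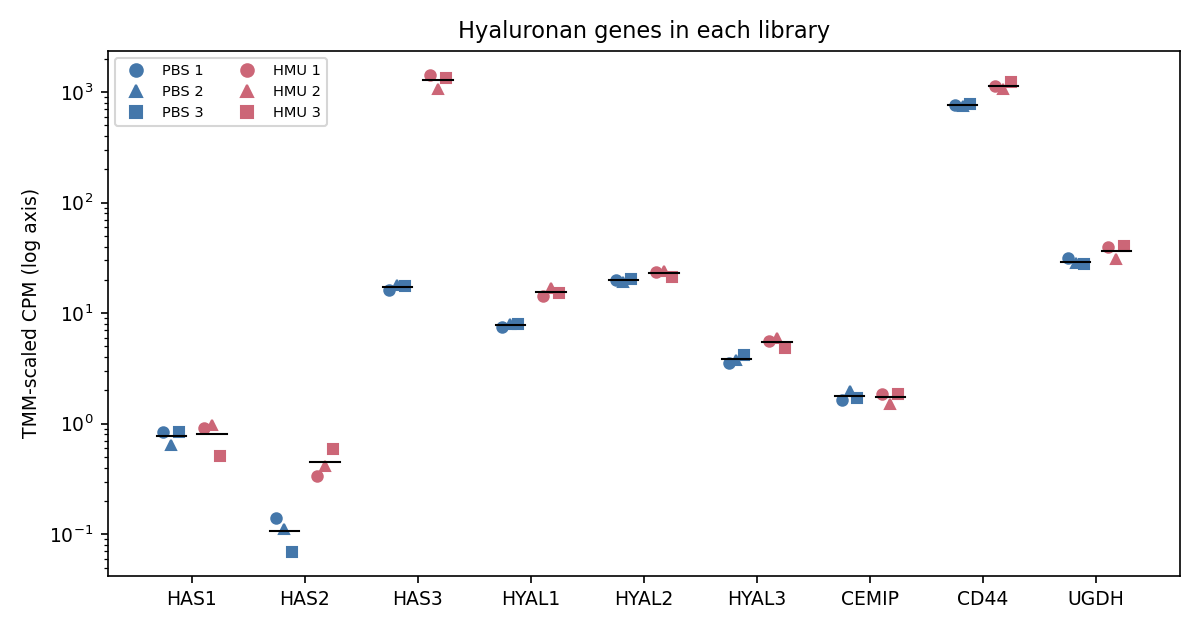
TMM-scaled CPM (log axis) of the 9 genes in each library; symbols give the replicate, colours the group, and black lines the group means. HAS3 went from 16.3 to 17.9 CPM in PBS up to 1069 to 1441 CPM in HMU, while HAS1, CEMIP and UGDH overlapped between the groups.

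HAS3, a synthase expressed in keratinocytes, carried by far the largest difference of the 9. HAS3 (gene ID 3038, chromosome 16 from 69083484 to 69118719, plus strand) had 16.3, 17.9 and 17.5 CPM in PBS replicates 1 to 3 and 1441, 1069 and 1356 CPM in HMU replicates 1 to 3. The groups did not overlap, and HMU replicate 2 was the lowest of the treated libraries. The fitted difference was 74.8-fold, a log2 fold change of 6.22 ± 0.14 (SE), and 6.34 without HMU replicate 2. The change was also visible in whole counts, from 1151 to 1285 reads per PBS library to 61418 to 85410 per HMU library, or from 0.00190% ± 9.98e-05 to 0.117% ± 0.0189 of all counts (SD, n = 3). By log2 fold change HAS3 stood at rank 54 of all 17990 tested genes and at rank 18 of the 13934 tested genes that averaged 1 CPM or more, and by gain in CPM (1271) at rank 26 of all tested.

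HAS2, the synthase that makes very long chains in many mesenchymal cells, stayed close to the detection limit. HAS2 (gene ID 3037, chromosome 8 from 121612116 to 121641440) had 10, 8 and 5 reads in the PBS libraries and 20, 24 and 36 in the HMU libraries. Every HMU value lay above every PBS value, at 0.337 to 0.594 CPM against 0.0694 to 0.141 CPM. The fitted log2 fold change was 2.05 ± 0.37 (SE), and 2.103 without HMU replicate 2, from 23 reads in all PBS libraries together and 80 in all HMU libraries. On log2(TPM + 1), which understates the change of low genes, the difference was 0.17.

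HAS1, the remaining synthase, did not share the pattern of HAS3. HAS1 (gene ID 3036, chromosome 19 from 51713112 to 51723991, minus strand) had 0.848, 0.643 and 0.846 CPM in PBS and 0.911, 0.975 and 0.511 CPM in HMU. The groups overlapped, and HMU replicate 3 was the lowest of the 6 libraries. Its log2 fold change was 0.03 ± 0.27 (SE), and it turned negative without HMU replicate 2 (-0.13), with library sizes alone (-0.25) and on log2(TPM + 1) (-0.17). HAS1 overlaps SPACA6, on the other strand, by 32 bases, and no source used here says whether counting used strand.

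**Figure D2:**
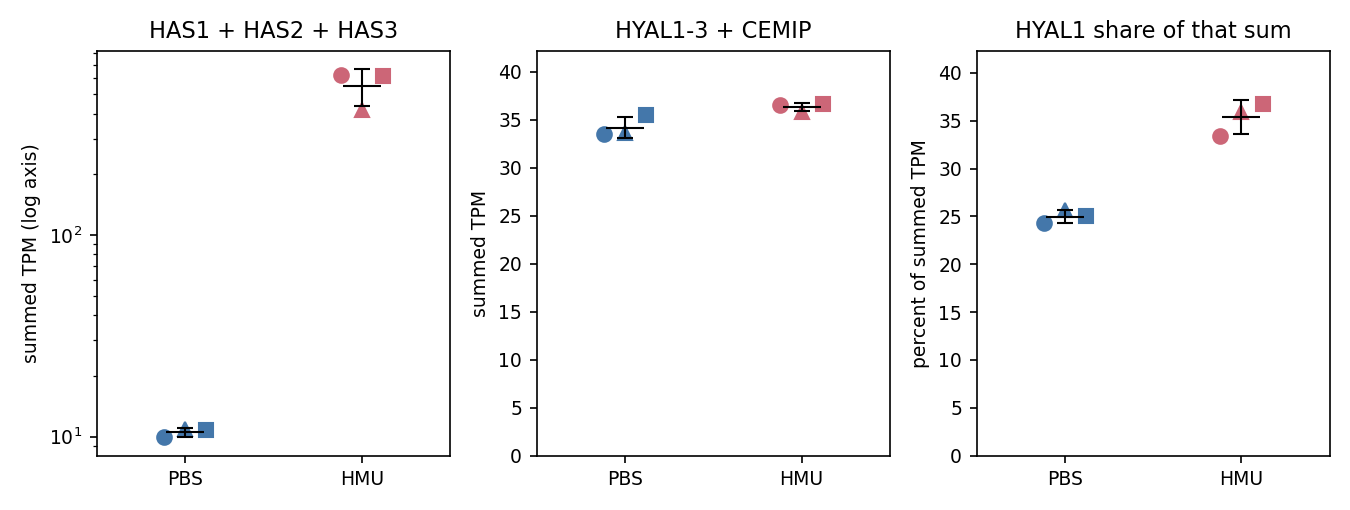
Summed TPM of the 3 synthases (log axis), summed TPM of HYAL1, HYAL2, HYAL3 and CEMIP, and the share of HYAL1 in that second sum, as percent; points are libraries, with mean and SD (n = 3). The synthase sum went from 9.93 to 10.9 up to 418 to 620 TPM, the hyaluronidase sum from 33.5 to 35.5 up to 35.8 to 36.7 TPM, and the HYAL1 share from 24.3 to 25.6% up to 33.4 to 36.8%.

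TPM, which divides by transcript length, allows levels of different genes to be set side by side. HAS3 was already the main synthase transcript in PBS, with 90.0%, 92.9% and 90.9% of the summed synthase TPM, and held 99.8% to 99.9% of it in HMU. HAS1 held 6.57% to 9.26% of that sum in PBS and 0.0752% to 0.180% in HMU. The synthase sum was 10.5 ± 0.518 TPM in PBS and 549.5 ± 114 TPM in HMU (SD, n = 3), and HMU replicate 2, at 418 TPM, was the lowest treated library.

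In PBS the order of the 9 TPM levels, from the top, was CD44, UGDH, HYAL2, HAS3, HYAL1, HYAL3, HAS1, CEMIP and HAS2, and no neighbouring pair overlapped across the 3 libraries. CD44 averaged 347 TPM, UGDH 22.7 TPM, HYAL2 20.0 TPM and HAS3 9.61 TPM. The closest pair in the list was HAS3 (8.94 to 10.1 TPM) and HYAL1 (8.14 to 8.86 TPM). In HMU the order was HAS3, CD44, UGDH, HYAL2, HYAL1, HYAL3, HAS1, CEMIP and HAS2. Here HAS3 (417 to 619 TPM) and CD44 (341 to 462 TPM) overlapped across libraries, as did UGDH (16.8 to 25.2 TPM) with HYAL2 (17.1 to 18.3 TPM) and HAS1 (0.459 to 0.780 TPM) with CEMIP (0.331 to 0.476 TPM). Within each library the step was clear for HAS3: its TPM was 0.0260 to 0.0298 times that of CD44 in PBS and 1.22 to 1.53 times in HMU. Among all genes in the table, HAS3 held TPM ranks 8872 to 9229 in the PBS libraries and 209 to 302 in the HMU libraries.

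HYAL1, the lysosomal hyaluronidase that cuts short chains, had the largest log2 difference of the 4 breakdown genes among the 9. HYAL1 (gene ID 3373, chromosome 3 from 50299893 to 50312381, minus strand) had 7.48, 7.96 and 7.96 CPM in PBS and 14.4, 16.9 and 15.4 CPM in HMU, with no overlap. Its log2 fold change was 1.00 ± 0.09 (SE), and 0.94 without HMU replicate 2. The difference kept its direction with library sizes alone (0.71) and on log2(TPM + 1) (0.54).

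HYAL2 and HYAL3, neighbours of HYAL1 in 1 gene cluster, differed less. HYAL2, a surface-anchored enzyme that cuts long chains (gene ID 8692, chromosome 3 from 50317808 to 50322745, minus strand), had 20.0, 19.1 and 20.5 CPM in PBS and 23.4, 23.9 and 21.4 CPM in HMU. Its CPM values did not overlap, with HMU above, whereas its TPM values did not overlap with HMU below (17.1 to 18.3 against 19.2 to 20.5). The log2 fold change of HYAL2 was 0.21 ± 0.08 (SE) with TMM scaling, 0.18 without HMU replicate 2, -0.08 with library sizes alone and -0.17 on log2(TPM + 1), so its direction differed between scalings. HYAL3 (gene ID 8372, chromosome 3 from 50292832 to 50299405, minus strand), whose own enzyme activity is less settled, had 3.58, 3.76 and 4.19 CPM in PBS and 5.65, 5.99 and 4.87 CPM in HMU. Its groups did not overlap in CPM but did in TPM, and its log2 fold change was 0.52 ± 0.12 (SE), 0.46 without HMU replicate 2 and 0.05 on log2(TPM + 1). HYAL3 overlaps NAA80, on the same strand, by 3004 bases, so reads of the pair could be shared.

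CEMIP, which binds hyaluronan and takes part in its depolymerisation, did not separate the groups in CPM. CEMIP (gene ID 57214, chromosome 15 from 80779370 to 80951771, plus strand) had 1.65, 1.98 and 1.71 CPM in PBS and 1.86, 1.497 and 1.85 CPM in HMU. HMU replicate 2 was the lowest library and PBS replicate 2 the highest. Its log2 fold change was -0.04 ± 0.15 (SE) with TMM scaling, 0.06 without HMU replicate 2 and -0.32 with library sizes alone. In TPM its HMU values lay below its PBS values, at 0.331 to 0.476 against 0.521 to 0.632. The gene overlaps MESD, on the other strand, by 5483 bases.

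The summed TPM of these 4 breakdown genes was 34.2 ± 1.10 in PBS and 36.3 ± 0.461 in HMU (SD, n = 3), a far smaller difference than that of the synthase sum. CEMIP2, a relative of CEMIP described below, is outside this sum. It had 10.4 ± 0.258 TPM in PBS and 23.75 ± 6.77 TPM in HMU, so the sum does not stand for all turnover genes. Within the sum the makeup shifted: HYAL2 held 57.1% to 60.2% in PBS and 47.8% to 50.2% in HMU, and HYAL1 held 24.3% to 25.6% and 33.4% to 36.8%. The shares of both genes separated the groups without overlap. A share does not depend on library scaling.

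CD44, the main hyaluronan receptor of epithelial cells, had the highest TPM of the 9 in PBS. CD44 (gene ID 960, chromosome 11 from 35139171 to 35232402, plus strand) had 766, 748 and 786 CPM in PBS and 1133, 1060 and 1238 CPM in HMU. All HMU values lay above all PBS values, and HMU replicate 2 was again the lowest treated library. Its log2 fold change was 0.58 ± 0.07 (SE), a 1.49-fold difference, and 0.63 without HMU replicate 2. It was smaller with library sizes alone (0.30) and on log2(TPM + 1) (0.20), and in TPM the groups overlapped, at 339 to 359 in PBS and 341 to 462 in HMU. The table lists 27 transcripts for CD44, a heavily spliced gene, and gives their sum only.

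UGDH, which oxidises UDP-glucose to UDP-glucuronic acid, is the member that feeds the synthases. UGDH (gene ID 7358, chromosome 4 from 39498755 to 39527439, minus strand) had 31.3, 28.2 and 28.1 CPM in PBS and 39.6, 30.9 and 40.2 CPM in HMU. The groups overlapped, since HMU replicate 2 fell below PBS replicate 1. The log2 fold change of UGDH was 0.34 ± 0.11 (SE) with TMM scaling, 0.45 without HMU replicate 2, 0.06 with library sizes alone and -0.07 on log2(TPM + 1), so its direction depends on the scaling. Per unit of UGDH TPM, HAS3 TPM went from 0.370 to 0.462 in PBS up to 24.2 to 26.1 in HMU. In this ratio HMU replicate 2, at 24.8, was not set apart from the other treated libraries.

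**Figure D3:**
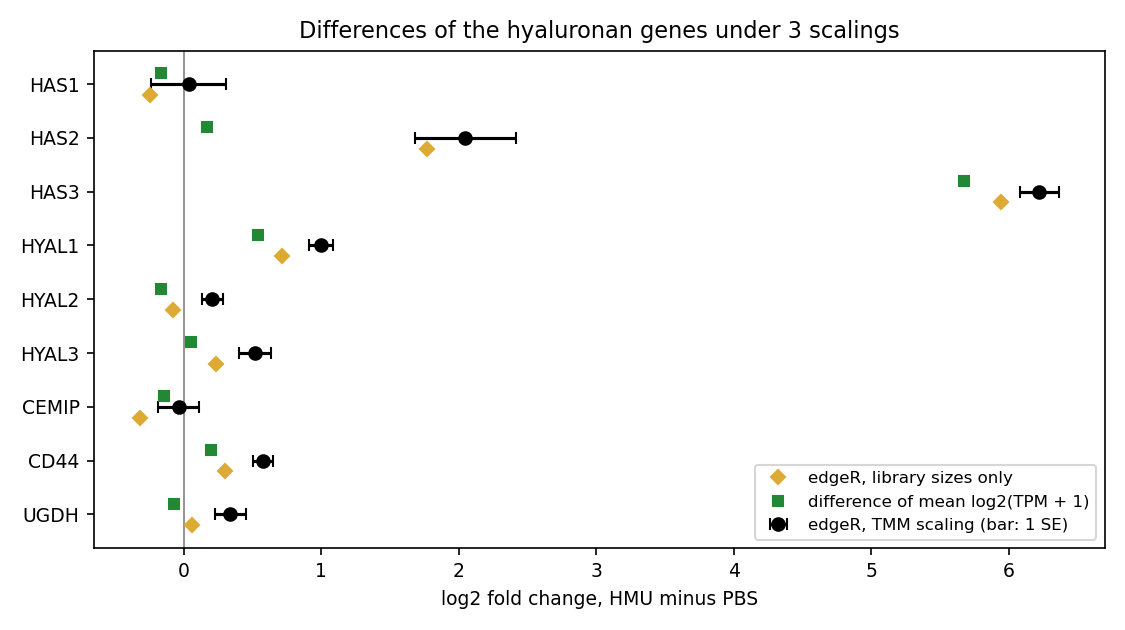
Log2 fold change of the 9 genes, HMU minus PBS, with TMM scaling (black, bars 1 SE), with library sizes alone (yellow) and as the difference of mean log2(TPM + 1) (green). HAS3 stayed at 5.67 or more and HYAL1 at 0.54 or more, while HAS1, HYAL2 and UGDH changed sign between scalings.

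Of the 9 genes, 6 had no overlap between the 3 HMU and the 3 PBS values in CPM, all with HMU above, where 62.3% of all tested genes had none and 30.3% had HMU above. Nothing is read from that count. HMU replicate 2 was the lowest treated library for HAS3, CD44, UGDH and CEMIP and the highest for HAS1, HYAL1, HYAL2 and HYAL3.

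The genes whose profile over the 6 libraries was most like that of HAS3 were sought among 9832 tested genes that averaged 10 CPM or more. Likeness was the root mean square distance in log2(CPM + 0.5) after subtracting the PBS mean, and is a description. The closest was CCL20, a chemokine for dendritic cells and lymphocytes (distance 0.101), followed by IL36G, an interleukin-1 family cytokine of epithelia (0.153), and CXCL8, a neutrophil chemokine (0.200). OLR1, a receptor for oxidised lipoprotein (0.235), and C15orf48 (0.392) came next. This order depends on the added 0.5, which shrinks differences of genes low in PBS. Fitted log2 fold changes were 6.645 for CCL20, 6.559 for IL36G, 6.955 for CXCL8, 6.034 for OLR1 and 7.082 for C15orf48. HAS3 had 6.22, and by this measure OLR1 was the nearest of the 5. Their PBS means ran from 0.309 to 4.71 CPM, so all reached the 10 CPM average through HMU. CCL20 had 1.40, 1.70 and 1.30 CPM in PBS and 178, 120 and 144 CPM in HMU, where HMU replicate 2 was again the lowest treated library. IL36G went from 1.72 ± 0.0990 to 162 ± 14.6 CPM, and OLR1 from 4.71 ± 0.201 to 309 ± 58.5 CPM (SD, n = 3). Per length, HAS3 averaged 549 TPM in HMU, CCL20 317 TPM, IL36G 240.3 TPM and OLR1 227 TPM.

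**Figure D4:**
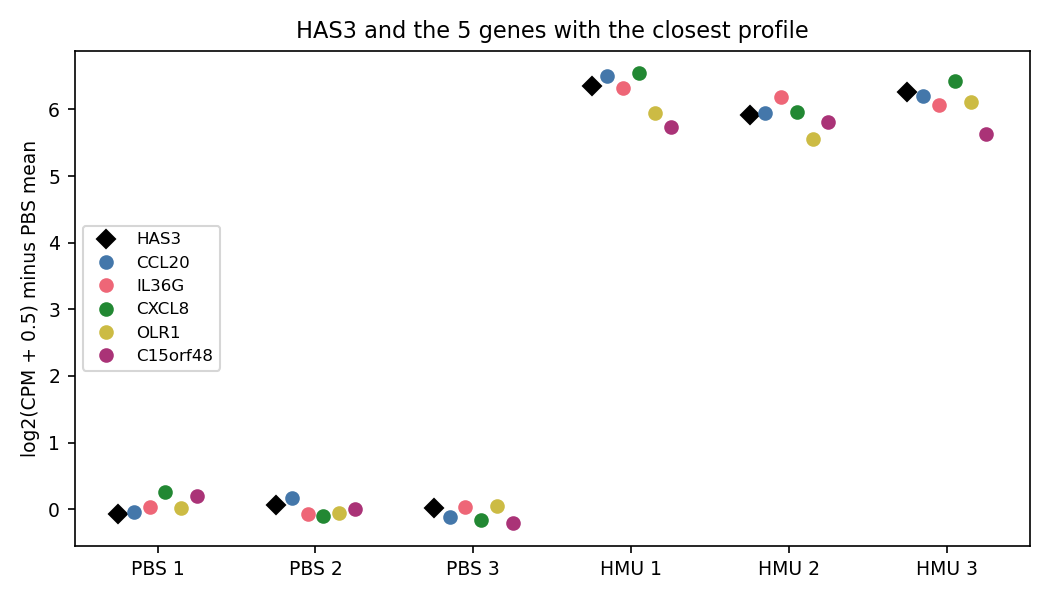
Log2(CPM + 0.5) minus the PBS mean of each gene, for HAS3 (diamonds) and the 5 genes with the closest profile, in each of the 6 libraries. All 6 genes lay near 0 in the PBS libraries and well above it in the HMU libraries, and for HAS3, CCL20, CXCL8 and OLR1 HMU replicate 2 was the lowest treated library.

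The precursor supply around UGDH was described with 24 other genes of UDP-sugar metabolism, all tested, of which 8 rose and 3 fell by edgeR's test over all genes (33.3% and 12.5%). Their median log2 fold change was 0.05. Over all 17990 tested genes 24.8% were called higher and 24.9% lower, and the median was -0.00245. This list and those that follow were chosen with earlier results of these data known, so nothing is read from their counts or medians. The largest log2 rises were those of GFPT2 and UAP1, in the branch to UDP-N-acetylglucosamine, whose members did not all move the same way. GFPT2, which makes glucosamine phosphate in the committed step of that branch, rose from 1.06 ± 0.174 to 4.34 ± 0.206 CPM (log2 difference 2.03 ± 0.15 SE, with an edgeR adjusted p = 3.53e-05). GFPT1, which performs the same step as GFPT2, had 64.9 ± 0.842 and 64.5 ± 11.1 CPM and was not called (edgeR adjusted p = 0.961). PGM3, another enzyme of the branch, fell from 37.2 ± 1.12 to 31.5 ± 2.52 CPM, and UAP1L1, a relative of UAP1, from 18.2 ± 0.542 to 14.8 ± 0.951 CPM (edgeR adjusted p = 0.0404 and 0.0143). These 3 were named after their values were seen. UAP1, the last enzyme of the branch, had 36.7, 40.0 and 39.4 CPM in PBS and 115, 114 and 106 CPM in HMU, a log2 fold change of 1.53 ± 0.07 (SE), with an edgeR adjusted p = 3.76e-06. UGP2, which makes the UDP-glucose that UGDH uses, was named after its values were seen; it had 83.0 ± 1.85 and 83.9 ± 1.85 CPM and was not called (edgeR adjusted p = 0.847). SLC35D1, which carries UDP-glucuronic acid out of the cytosol into the endoplasmic reticulum, fell from 44.1 ± 1.63 to 13.5 ± 3.18 CPM (log2 difference -1.71 ± 0.17 SE, with an edgeR adjusted p = 0.000137). HK1, a hexokinase with the highest mean TPM of the list over all libraries, had 268 ± 5.13 and 273 ± 2.78 CPM (edgeR adjusted p = 0.712). Scaled by library sizes alone, 4 of the list rose and 10 fell. Without PBS replicate 1, 2 or 3 or HMU replicate 1, 5 rose; without PBS replicate 1 or 2, 1 fell; without HMU replicate 2, 5 fell.

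Of 30 other hyaluronan-binding proteins and receptors 13 could be tested, and 8 of these rose and 1 fell (61.5% and 7.69%). The median log2 fold change of the 13 was 0.84. Over all tested genes the median was -0.00245, with 24.8% called higher and 24.9% lower. Nothing is read from this count, for the reason given above. TNFAIP6, which binds hyaluronan and links proteins to it, had 0.141, 0.154 and 0.166 CPM in PBS and 6.33, 4.25 and 5.21 CPM in HMU, a log2 fold change of 5.08 ± 0.22 (SE), with an edgeR adjusted p = 2.72e-06. PTX3, a pentraxin that joins TNFAIP6 in hyaluronan matrix, rose from 0.242 ± 0.0695 to 2.98 ± 0.565 CPM. Its log2 difference was 3.61 ± 0.25 (SE), with an edgeR adjusted p = 2.73e-05. Both were close to the detection limit in PBS, with 10, 11 and 12 reads for TNFAIP6 and 18, 12 and 22 for PTX3. ICAM1, a leukocyte adhesion receptor that also binds hyaluronan, rose from 16.4 ± 0.217 to 415 ± 41.7 CPM (log2 difference 4.67 ± 0.10 SE, with an edgeR adjusted p = 2.29e-07). C1QBP, with the highest mean TPM of the list over all libraries though below ICAM1 in HMU, rose from 101 ± 1.40 to 122 ± 11.96 CPM (edgeR adjusted p = 0.0287), a call that ended without PBS replicate 1, 2 or 3 or HMU replicate 1 (edgeR adjusted p = 0.0955, 0.102, 0.0858 and 0.0562) and turned to -0.01 with library sizes alone. The 1 gene that fell, named after its values were seen, was HMMR, the receptor for hyaluronan-mediated motility and a spindle protein, from 43.9 ± 1.10 to 24.1 ± 3.14 CPM (edgeR adjusted p = 0.000391). The serum proteins ITIH1, ITIH2 and ITIH3, whose heavy chains TNFAIP6 transfers to hyaluronan, and the receptors LYVE1 and STAB2 were too low to be tested. Scaling by library sizes alone left 2 of the list lower.

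Of 7 other genes listed under hyaluronan turnover 5 were tested. At an edgeR adjusted p under 0.05, 3 rose and 0 fell (60.0% and 0.0%). Of all 17990 tested genes 24.8% were called higher and 24.9% lower, and nothing is read from this count. CEMIP2, a surface protein related to CEMIP, had 27.0, 27.8 and 26.5 CPM in PBS and 92.3, 59.3 and 89.5 CPM in HMU. The groups did not overlap, and the log2 fold change was 1.57 ± 0.16 (SE), with an edgeR adjusted p = 0.000193, and 1.75 without HMU replicate 2. CEMIP2 thus differed where CEMIP did not separate the groups; the difference between the pair was not tested. IDUA, a lysosomal iduronidase, is counted in the list, although hyaluronan as described above holds no iduronic acid. IDUA rose from 5.83 ± 0.449 to 7.46 ± 0.544 CPM (edgeR adjusted p = 0.0227). That call ended without PBS replicate 1 or 3 (edgeR adjusted p = 0.0781 and 0.0924). In TPM its means were 5.598 in PBS and 5.64 in HMU. On library sizes alone CEMIP2 was the 1 gene of the list that rose.

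The list around CD44 held 20 partners, proteases that shed it and splicing factors. Of these 19 were tested, 10 rose and 5 fell (52.6% and 26.3%), where 24.8% of all tested genes rose and 24.9% fell. Nothing is read from this count. The median log2 fold change was 0.36 (also 0.36 with SRGN, at 0 counts in PBS, set to a floor of 3 counts per library). SRGN is counted among those that rose but passed the filter on low counts only through HMU, so its call is no support. MMP9, a gelatinase that CD44 holds at the cell surface, had 29.8, 28.8 and 28.9 CPM in PBS and 712, 847 and 674 CPM in HMU, a log2 fold change of 4.67 ± 0.11 (SE), with an edgeR adjusted p = 2.29e-07. LGALS9, a galectin that binds CD44, rose from 0.932 ± 0.0344 to 3.08 ± 0.0956 CPM (edgeR adjusted p = 2.80e-05). EZR, which ties the tail of CD44 to actin, rose from 260 ± 3.48 to 490 ± 33.3 CPM (edgeR adjusted p = 3.85e-05). HNRNPA1, a splicing factor and the most abundant of the list, rose by 0.46 ± 0.07 (SE) on the log2 scale (edgeR adjusted p = 0.00117). The 5 that fell, named after their values were seen, were RDX, ANK3, ESRP1, ESRP2 and TRA2B. ESRP1 and ESRP2, epithelial splicing factors that favour the variant exons of CD44, went from 218 ± 6.35 to 173 ± 26.3 CPM and from 136 ± 3.53 to 98.3 ± 1.02 CPM (edgeR adjusted p = 0.0391 and 0.000559). Without PBS replicate 3 or HMU replicate 1, 3 of the list fell.

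Sulfated glycosaminoglycans, made in the Golgi from the same UDP-glucuronic acid, were described for comparison. Of 31 genes of their assembly 26 were tested, 10 rose and 8 fell (38.5% and 30.8%), and the median log2 fold change was -0.05. The shares over all tested genes were 24.8% higher and 24.9% lower, and nothing is read from this count. EXT1, a heparan sulfate polymerase, rose from 92.3 ± 2.48 to 204 ± 16.1 CPM (log2 difference 1.146 ± 0.08 SE, with an edgeR adjusted p = 2.10e-05). HS3ST1, a heparan sulfotransferase, rose from 1.75 ± 0.268 to 6.44 ± 0.424 CPM, and CHST15, a chondroitin sulfotransferase, from 36.9 ± 0.244 to 97.1 ± 10.1 CPM (edgeR adjusted p = 3.60e-05 and 1.75e-05). CHSY1, a chondroitin polymerase named after its values were seen, fell from 39.0 ± 0.50 to 22.8 ± 2.31 CPM (edgeR adjusted p = 0.000313). NDST1, the most abundant of the list by TPM, was not called (edgeR adjusted p = 0.606). By library sizes alone 5 of the list rose and 14 fell.

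Of 12 cell-surface proteoglycans, which carry those sulfated chains, 10 were tested, 2 rose and 4 fell (20.0% and 40.0%). Their median log2 fold change was -0.22. Among all tested genes 24.8% were called higher and 24.9% lower, and nothing is read from this count. SDC4, a syndecan with the highest TPM of the list in HMU and below SDC1 in PBS, had 711, 680 and 718 CPM in PBS and 4169, 3866 and 3977 CPM in HMU. That is a log2 fold change of 2.51 ± 0.06 (SE), with an edgeR adjusted p = 2.72e-07, a smaller log2 difference than the 6.22 of HAS3. TGFBR3, a co-receptor for TGF-beta, fell from 22.6 ± 0.885 to 4.21 ± 0.971 CPM (log2 difference -2.42 ± 0.16 SE, with an edgeR adjusted p = 1.82e-05), and CSPG4 fell from 243 ± 1.83 to 162 ± 7.61 CPM (edgeR adjusted p = 0.000221). With library sizes alone 1 of the list rose, and without PBS replicate 1, 2 or 3 or HMU replicate 1, 2 fell.

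**Figure D5:**
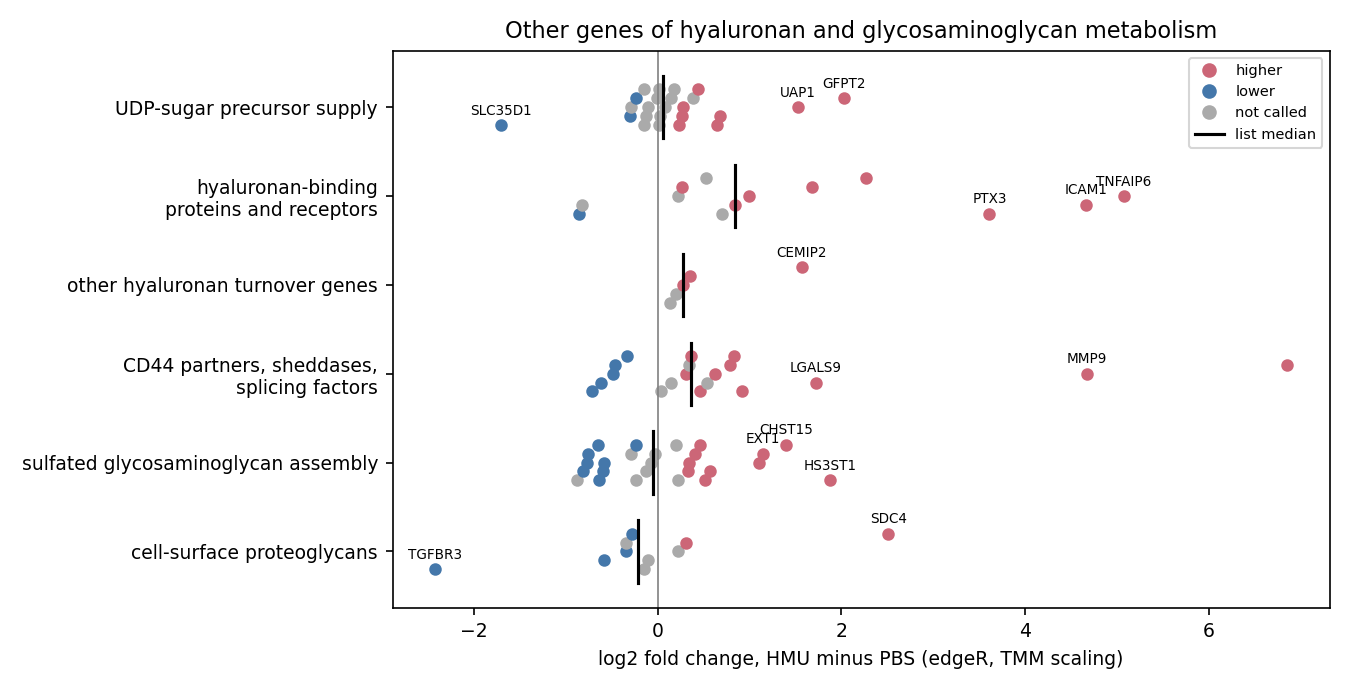
Log2 fold change (HMU minus PBS, edgeR with TMM scaling) of every tested gene in the 6 lists around hyaluronan metabolism; red and blue mark genes called higher and lower, grey genes not called, and black lines the list medians. The medians ran from -0.22 for cell-surface proteoglycans to 0.84 for hyaluronan-binding proteins, with TNFAIP6 and ICAM1 far to the right; the unlabelled point furthest right is SRGN, which had 0 counts in PBS, so its fitted value is no bound.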

How the data were processed

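RNA from 6 samples was sequenced from stranded mRNA libraries, per the labels. The authors deposited whole-number read counts, FPKM and TPM per gene and library, per the file headers; FPKM is scaled by length and depth, and TPM also to a fixed sum. Tools and build, per the submitters' processing notes, were HISAT2 2.1.0 and StringTie 2.1.3b on GRCh38, with Trimmomatic 0.38 and FastQC 0.11.7; the counter, its annotation, and how it treated strand and reads with several matches are not given in the sources. Columns headed HMO were taken as HMU, the only treated columns, with the same replicate numbers.

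Counts were analysed with R 4.3.3 and edgeR 4.0.16: filterByExpr (17990 genes), TMM, estimateDisp, glmQLFit with default settings and glmQLFTest on the group, with Benjamini-Hochberg adjustment over all tested genes and calls under 0.05. SE is the log2 fold change divided by the root of F. Levels are TMM-scaled CPM, mean ± SD of 3 libraries. FPKM was not used. Alternatives were DESeq2 1.42.0, limma-voom and limma-trend on TPM (limma 3.58.1), RLE factors, library sizes alone, other filters, a replicate block and leaving out each library; the newer quasi-likelihood fit (legacy = FALSE) was added after seeing the data. The fits were tested on simulated counts. That simulation changed 200 of 17990 genes, up and down equally, and held no outlying library. It therefore cannot test the choice of scaling or the effect of HMU replicate 2.

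The 9 genes and the lists were chosen with earlier results of these data known. Named genes are the 9, and in each list the 3 called genes with the largest change, at least 1 CPM and no overlap, plus the most abundant by mean TPM over all 6 libraries; others are marked, and a gene the rule names is not reported here. Positions are RefSeq GRCh38.p14, matched by gene ID for 96.3% of genes. A planned comparison of protein sequences was not run.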

Additional observations from a re-analysis of the deposited data

How the results depend on the processing

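With library sizes alone, 2413 genes of the table were higher and 7855 lower, against 4457 and 4487 with TMM. Of the 9 hyaluronan genes 4 were higher in that setting, against 6 with TMM. In the same setting 4 precursor supply genes were higher and 10 lower, 5 genes of sulfated chain assembly higher and 14 lower, 1 turnover gene and 1 proteoglycan higher, and 2 hyaluronan-binding genes lower. On log2(TPM + 1), 1975 genes were higher and 9153 lower, and on log2(TPM + 0.1) 1965 and 9126. On both TPM scales 3 of the 9 hyaluronan genes were higher, as were 4 precursor supply genes (13 lower) and 1 turnover gene (2 lower). Also higher on both were 6 CD44 partners (7 lower), 5 assembly genes (12 lower) and 1 proteoglycan. Proteoglycans lower numbered 7 on log2(TPM + 1), and hyaluronan-binding genes lower numbered 2 on that scale and 3 on log2(TPM + 0.1). Leaving out 1 library gave 5 to 11 precursor supply genes higher and 1 to 5 lower, 3 to 5 CD44 partners lower and 2 to 5 proteoglycans lower. Directions reversed for UGDH on log2(TPM + 1) and log2(TPM + 0.1) (-0.070 and -0.073), for CDH1 (-0.028 and -0.028) and IFRD2 (-0.10 and -0.11) on the same scales, and with library sizes alone and those scales for HK1 (-0.25, -0.37 and -0.37) and C1QBP (-0.014, -0.14 and -0.14); the cause was not tested. Over 16 alternatives the log2 fold change of HAS3 ran from 5.67 to 6.34, of HYAL1 from 0.54 to 1.05 and of CD44 from 0.20 to 0.63. The replicate block gave 4173 genes higher and 4250 lower. Same-numbered libraries showed no clear shared deviation (correlations -0.02, 0.03 and 0.05). With 3 libraries per group this cannot exclude pairing, so whether the numbers pair the samples is not settled. The newer quasi-likelihood fit gave 4503 and 4547. Depth limits HAS2, with 5 to 36 reads per library.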

Other observations

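Genes around the 9 were read from the RefSeq annotation as a check on shared reads and local change. HAS3 overlaps 3 measured genes. TANGO6, on the same strand as HAS3 (overlap 1699 bases), went from 13.04 ± 0.199 to 22.1 ± 0.286 CPM. Its log2 fold change was 0.76 ± 0.07 (SE), with an edgeR adjusted p = 7.87e-05. Reads of HAS3 and TANGO6 could be shared, and how far they were was not tested. DERPC and CHTF8, on the other strand and at the same position as each other, each share 710 bases with HAS3. They had 43.5 ± 6.72 and 43.1 ± 8.35 CPM in PBS and 39.5 ± 12.4 and 39.7 ± 10.1 CPM in HMU. Neither was called (edgeR adjusted p = 0.623 and 0.652), though DERPC was called lower without HMU replicate 2 (0.0306). UTP4, 13929 bases beyond the gene, rose from 48.9 ± 1.38 to 76.0 ± 0.870 CPM (log2 difference 0.64 ± 0.06 SE, with an edgeR adjusted p = 0.000146). CDH1, 247946 bases before HAS3, had a log2 fold change of 0.38 ± 0.10 (SE), with an edgeR adjusted p = 0.0171, a call that ended without PBS replicate 1, 2 or 3 or HMU replicate 1 (0.0535 to 0.0698). HAS3 itself had a log2 fold change of 6.22.

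In the HYAL cluster, NAA80 had a log2 fold change of 0.58 ± 0.09 (SE), with an edgeR adjusted p = 0.00149, close to the 0.52 of HYAL3, which it overlaps. TUSC2 and IFRD2, at the ends of the cluster, had 0.42 ± 0.13 and 0.30 ± 0.10 (SE, edgeR adjusted p = 0.0309 and 0.0368). Both calls ended without PBS replicate 1, 2 or 3, with edgeR adjusted p from 0.0707 to 0.107 for TUSC2 and from 0.077 to 0.13 for IFRD2, and that of IFRD2 also without HMU replicate 1 (0.0705). Beside UGDH, the divergent transcript UGDH-AS1 had 0.942 ± 0.0805 and 0.702 ± 0.143 CPM and was not called (edgeR adjusted p = 0.121).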
